A study of Mus musculus with 9 samples.

Results

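The genes described here are 29 genes of cholesterol synthesis and lipid handling, chosen by name from the 19769 genes of the RNA-seq table. They comprise 17 enzymes of sterol synthesis, 4 SREBP regulators, 4 genes of fatty acid synthesis and 4 genes of lipid export and uptake. Their RNA was measured in low-MYC and high-MYC MEFs, which are fibroblasts taken directly from mouse embryos. Cells of both groups were homozygous for a fusion of Myc and Egfp at the endogenous locus (Myc-Egfp+/+), had been grown for no more than 3 passages, and had been exposed for 6 h to 20 µM MG-132, a proteasome inhibitor that raises the MYC-GFP signal. They were then separated by GFP fluorescence into a low and a high fraction. After sorting, both fractions were plated and kept overnight before RNA was extracted. Each group had 2 libraries, which are technical replicates, so every p-value below compares these libraries and not independent cultures. No library without MG-132 and no library of unsorted cells was analysed here. The same series holds 1 FUBP1 ChIP-seq sample of primary MEFs and 4 TACh-seq samples, a nuclease assay of accessible chromatin, of wild-type and KOKD MEFs (Fubp1 knockout with Fubp2 knockdown). The question is how far the lipid genes followed the general difference in RNA between cells with little and with much MYC.

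Cholesterol is built from acetyl-CoA through mevalonate, isoprenoid units, squalene and lanosterol, and the 17 sterol synthesis genes encode enzymes along this route. Transcription of these enzymes is governed mainly by SREBP-2, the product of Srebf2, and that of fatty acid synthesis genes mainly by SREBP-1, the product of Srebf1. Both proteins travel with the sterol-sensing escort SCAP, which INSIG1 retains in the endoplasmic reticulum until sterols run low. Surplus sterol is instead exported by the transporters ABCA1 and ABCG1 to lipoproteins such as apolipoprotein E, whose genes respond to oxysterols through the LXR receptors.

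SREBPs bind the sterol regulatory element, and the CCAAT box is bound by NF-Y, which is known to act with them at sterol genes. RefSeq promoters on GRCm38.p6 were found for 22 of the 29 genes, and the 250 bases before the RefSeq start of each were searched on both strands. This start is not always the first annotated start of the gene. The windows of Acaca and Tm7sf2 lie inside the genes, and only 36 of the 250 bases of Msmo1 lie before its first annotated start. The CCAAT box, searched as CCAAT, was present in 17 of the 22, against 34.53% of all 27025 promoters and 37.59% of the 8390 promoters of genes tested in the RNA-seq. It was in 13 of the 14 sterol synthesis promoters, the exception being Dhcr7, in 3 of 4 regulators, in 1 of 2 fatty acid synthesis promoters and in 0 of 2 export promoters. A core of the sterol regulatory element, searched as TCACNCCA, was present in 4 of the 22, namely Apoe, Hmgcs1, Msmo1 and Srebf2, against 3.59% of all promoters and 3.13% of those of tested genes. The GC box GGGCGG was in 16 of the 22, against 62.28% of promoters of tested genes, and the MYC-type E-box CACGTG was in 4, namely Abca1, Hsd17b7, Insig1 and Sc5d, against 8.88%. The 2 upper-case motifs share the letters CCA and could overlap, but they do not in the sequences printed here. When each window was shortened to the bases before the first annotated start, the CCAAT box was left in 13 of the 22 windows and in 9 of the 14 of sterol synthesis, and the sterol element in 3, Msmo1 being lost. The shares over all promoters are for windows of full length and cannot be set against these counts. All matches describe letters in a window and not binding.

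Upstream sequences of 5 genes show how the motifs lie. Hmgcs1 and Srebf2 hold both motifs, Mvd and Ebp hold only CCAAT boxes, with Mvd in the upper and Ebp near the bottom of the range of changes described below, and Apoe, the gene that changed most, holds the sterol element without a CCAAT box. They are chr13:119690101-119690350 on the plus strand for Hmgcs1, chr8:122443423-122443672 on the minus strand for Mvd, chrX:8193513-8193762 on the minus strand for Ebp, chr15:82147019-82147180 on the plus strand for Srebf2 and chr7:19699189-19699438 on the minus strand for Apoe, all on GRCm38.p6. Each lies outside annotated exons and is printed 5′ to 3′ in the direction of its gene, with matches to TCACNCCA or CCAAT on either strand in capitals, so that ATTGG is a CCAAT box on the opposite strand.
Hmgcs1: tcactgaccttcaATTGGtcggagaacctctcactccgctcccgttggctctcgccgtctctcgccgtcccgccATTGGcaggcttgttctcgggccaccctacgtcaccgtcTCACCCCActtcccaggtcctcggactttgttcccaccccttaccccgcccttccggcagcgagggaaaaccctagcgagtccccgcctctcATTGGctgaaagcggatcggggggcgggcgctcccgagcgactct
Mvd: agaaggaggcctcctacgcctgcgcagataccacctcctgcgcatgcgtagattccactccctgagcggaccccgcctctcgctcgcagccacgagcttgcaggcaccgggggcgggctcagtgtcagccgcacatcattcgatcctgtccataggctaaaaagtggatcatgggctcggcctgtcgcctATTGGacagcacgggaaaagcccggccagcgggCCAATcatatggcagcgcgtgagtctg
Ebp: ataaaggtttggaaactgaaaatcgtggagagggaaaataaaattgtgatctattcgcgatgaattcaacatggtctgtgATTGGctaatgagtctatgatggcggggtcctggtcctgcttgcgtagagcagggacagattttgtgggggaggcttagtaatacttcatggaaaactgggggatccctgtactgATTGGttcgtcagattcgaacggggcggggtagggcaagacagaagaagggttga
Srebf2: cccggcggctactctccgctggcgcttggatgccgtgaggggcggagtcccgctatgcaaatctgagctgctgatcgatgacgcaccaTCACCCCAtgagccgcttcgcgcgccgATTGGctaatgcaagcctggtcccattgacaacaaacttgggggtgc
Apoe: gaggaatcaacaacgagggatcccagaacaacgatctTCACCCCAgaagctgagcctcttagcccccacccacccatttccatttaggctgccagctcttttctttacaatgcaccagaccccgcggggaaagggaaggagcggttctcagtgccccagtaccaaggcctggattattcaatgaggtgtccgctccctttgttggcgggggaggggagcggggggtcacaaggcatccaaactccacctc

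The deposited values are FPK, fragments per kilobase of transcript, divided by a score of ERCC spike-in RNA that had been added in proportion to cell number, so they compare RNA per cell. Summed over all genes, normalized FPK was 46321 and 48291 in the low-MYC libraries and 102853 and 109090 in the high-MYC libraries, and the number of reads behind these values is unknown. Among the 11870 genes tested, those whose mean over the libraries reached 0.1, 97.1% were higher in high-MYC cells at an adjusted p under 0.01 and 55.1% were also at least 2-fold higher, with a median log2 fold change of 1.03. A rise per cell was therefore the general state of this table. For this reason each gene was also compared after the libraries had been rescaled to the same median over the tested genes, called here the scale relative to the median gene. On that scale 1.76% of tested genes were higher and 0.531% were lower at an adjusted p under 0.01, and 7.84% and 5.08% at an adjusted p under 0.05. Fibroblast markers were abundant in every library, with all 12 tested and summed values of 402.0 to 408.9 in low-MYC and 980.5 to 1010 in high-MYC cells, so the defining RNAs of the labelled cell type were present.

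Per cell, every lipid gene that could be tested rose in high-MYC cells. All 28 tested genes were higher at an adjusted p under 0.01 and 25 were at least 2-fold higher, beside the 97.1% and 55.1% of all tested genes. None was lower. Pmvk, with a log2 fold change of 0.98, Dhcr7, with 0.996, and Acaca, with 0.91, were the 3 that did not reach 2-fold on this scale. It includes a pseudocount of 0.1 and understates the change of low genes. The plain ratios of their group means were 2.24, 2.52 and 2.51. The share of all genes depends on this too. With a pseudocount of 0.01, 28 lipid genes and 10076 of the 11870 tested genes were at least 2-fold higher. With a minimum mean of 1, these counts were 19 and 4779 of 5608. The median log2 fold change was 1.28 over the 28 genes, 1.27 in sterol synthesis, 1.25 among the SREBP regulators, 1.41 in fatty acid synthesis and 1.10 in export and uptake, against 1.03 over all tested genes. The order of the classes depends on the pseudocount: with 0.01 the median of export and uptake was the highest of the 4, at 1.68, and with 1 it was the lowest, at 0.37. The remaining gene, Abcg1, was too low to test, at 0.0044 and 0.00398 in low-MYC and 0.0142 and 0.0161 in high-MYC libraries. In these bulk samples, a different number of cells of one type and a different amount of RNA per cell cannot be told apart.

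**Figure D1:**
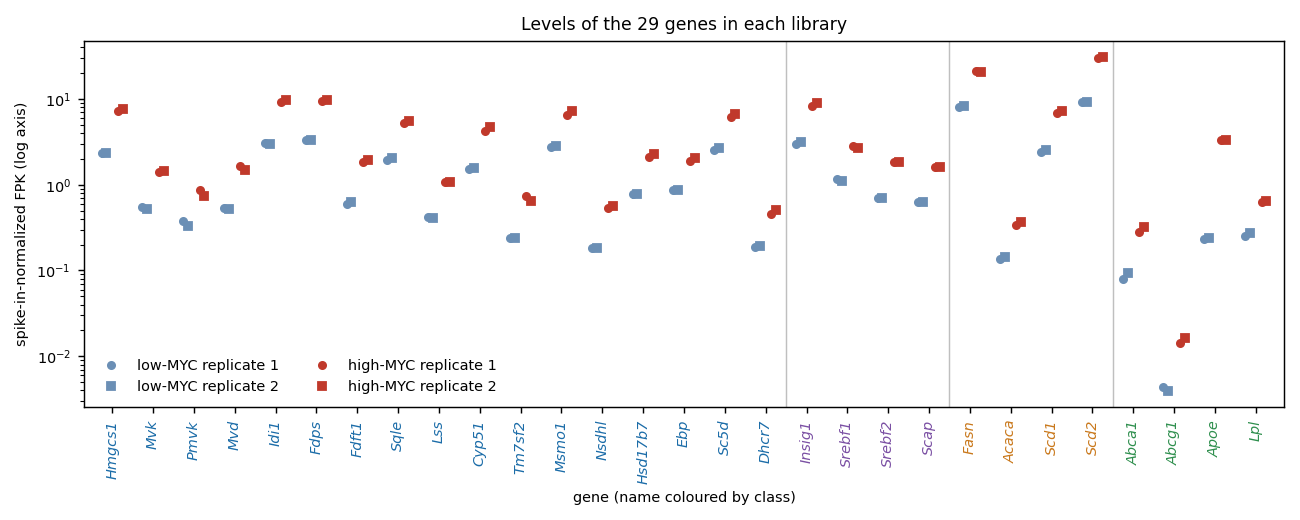
Spike-in-normalized FPK (log axis) of the 29 genes in the low-MYC (blue) and high-MYC (red) libraries, circles for replicate 1 and squares for replicate 2, with gene names coloured by class and grey lines between classes. Both high-MYC libraries lie above both low-MYC libraries for every gene, from Abcg1 near 0.01 to Scd2 at 30.5.

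Relative to the median gene, the lipid genes leaned upward and few passed the test. The log2 fold change was above 0 in 27 of the 28 tested genes, beside 48.5% of all tested genes, with a median of 0.28 against -0.0040 over all tested genes. At an adjusted p under 0.01, 5 genes rose, beside 1.76% of all tested genes: Apoe, Scd2, Idi1, Hmgcs1 and Fdft1 (limma with Benjamini-Hochberg adjustment). At an adjusted p under 0.05, 13 were higher, beside 7.84%, and 0 were lower, beside 5.08%. The 13 include Abca1, which was under 0.1 in both low-MYC libraries and reached the mean for a test only through its high-MYC values. None was lower at an adjusted p under 0.01, beside 0.531%. At an unadjusted p under 0.05 in limma, 23 were higher and 0 lower, beside 17.3% and 15.8% of all tested genes. The rescaled values of both high-MYC libraries lay above those of both low-MYC libraries in 25 of the 28 genes, beside 30.7% of all tested genes. With the replicate number added to the model, 0 lipid genes were called at 0.01, and so were 0 of all 11870 tested genes. With a library left out, 1 group held a single library, so calls are not counted there. The relative log2 fold change was then 0.45 to 0.51 for Hmgcs1 and 0.44 to 0.52 for Idi1.

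**Figure D2:**
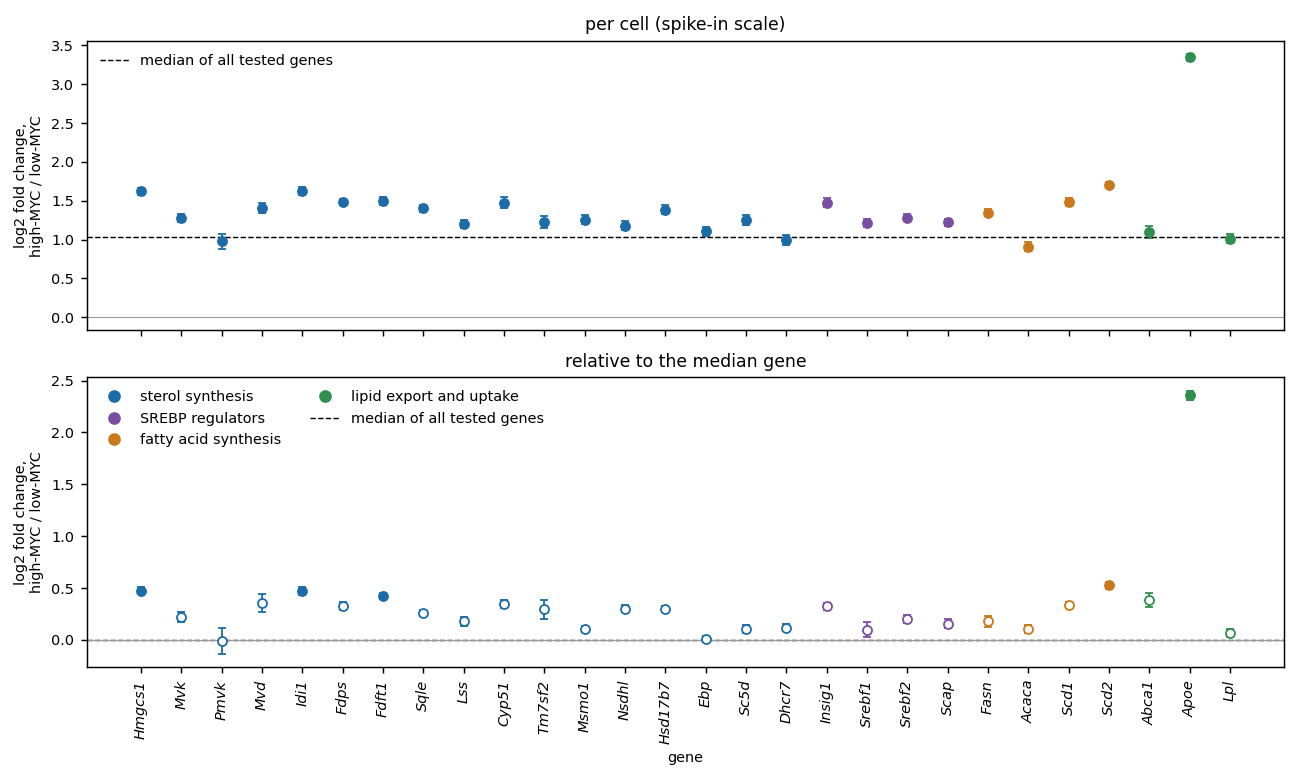
Log2 fold change of high-MYC against low-MYC cells for the 28 tested genes, per cell (top) and relative to the median gene (bottom), as limma estimates with standard errors as bars; filled points have an adjusted p under 0.01 and the dashed line is the median of all tested genes. All 28 points are filled in the top panel and 5 in the bottom panel, where Apoe stands at 2.36 and the other genes lie between -0.01 and 0.53.

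The first part of the sterol pathway runs from Hmgcs1 to Fdps. Hmgcs1 (ENSMUSG00000093930.2, chr13:119690379-119708260, plus strand, mm10) encodes the HMG-CoA synthase that feeds the mevalonate pathway. Its normalized FPK was 2.37 and 2.32 in the low-MYC libraries and 7.22 and 7.60 in the high-MYC libraries, 3.16-fold higher per cell. After rescaling it was 3.91 and 3.74 against 5.37 and 5.31, so both high-MYC libraries stayed above both low-MYC libraries, with a log2 fold change of 0.47 (SE 0.0340, adjusted p = 0.00790, limma with Benjamini-Hochberg adjustment). Idi1 (ENSMUSG00000058258.14, chr13:8885501-8892451, plus strand), the isomerase that makes the allylic isoprenoid unit, gave 3.05 and 2.96 against 9.14 and 9.82 per cell. Its log2 fold change relative to the median gene was also 0.47 (SE 0.0364, adjusted p = 0.00862, limma with Benjamini-Hochberg adjustment). Its value is less certain than that of Hmgcs1, since 21.32% of the 50-base stretches of its transcript recur in the transcripts of other genes, mostly the pseudogene Gm13502, which was listed at 0.597 and 0.839 in low-MYC and 2.96 and 2.94 in high-MYC libraries.

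The other 4 genes of this stretch did not pass at 0.01 on the relative scale, where 1.76% of all tested genes were higher. Mvd, the decarboxylase that yields isopentenyl diphosphate, measured 0.537 and 0.516 in low-MYC and 1.64 and 1.49 in high-MYC cells, with a relative log2 fold change of 0.36 and an SE of 0.0828. Fdps, which makes farnesyl diphosphate, had 3.36 and 3.34 against 9.50 and 9.64 and a relative value of 0.33, at an adjusted p of 0.0182 (limma with Benjamini-Hochberg adjustment). However, 86.42% of the 50-base stretches of Fdps recur in other transcripts and 1124 of its 4208 exonic bases are shared on the same strand with Gm43738, so its level is uncertain. Mvk, mevalonate kinase, had a relative value of 0.22 (SE 0.0454). Pmvk, the next kinase of the pathway, was the only tested gene below 0, with 0.382 and 0.330 against 0.862 and 0.734 per cell and -0.01 (SE 0.124) on the relative scale, where its groups overlapped. These 6 genes thus ran from no detectable difference from the median gene to a change of 0.47.

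From squalene onward, Fdft1 was the only one of 11 genes called at 0.01 on the relative scale, where 1.76% of all tested genes were higher. Fdft1 (ENSMUSG00000021273.10, chr14:63145150-63179578, minus strand) encodes squalene synthase, the first enzyme committed to sterols. Its values were 0.599 and 0.627 in low-MYC and 1.86 and 1.96 in high-MYC libraries, and after rescaling 0.989 and 1.01 against 1.38 and 1.37, a log2 fold change of 0.42 (SE 0.0290, adjusted p = 0.00728, limma with Benjamini-Hochberg adjustment). It shares 774 of 4227 exonic bases with Ctsb on the opposite strand, and whether counting used strand is not given in the sources used here.

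Of the 10 other genes, 4 passed only at 0.05. With Fdft1, 5 of the 11 were higher at 0.05, beside 7.84% of all tested genes. Cyp51, lanosterol demethylase, had 1.52 and 1.57 against 4.20 and 4.74 per cell and a relative value of 0.34. Nsdhl and Hsd17b7, which act in turn in removing the C4 methyl groups, had relative values of 0.30 and 0.29, and Sqle, squalene epoxidase, 0.26. Their adjusted p-values were 0.0178 for Cyp51, 0.0172 for Nsdhl, 0.0146 for Hsd17b7 and 0.0142 for Sqle (limma with Benjamini-Hochberg adjustment). Tm7sf2, a sterol reductase, had the same size of relative value, 0.30, but an SE of 0.0902, and it shares 532 of 4403 exonic bases with Vps51 on the same strand.

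The remaining 5 of the 11 genes, which act at various points of this route, had smaller values. Lss, lanosterol synthase, had a relative log2 fold change of 0.18, Dhcr7, the last reductase before cholesterol, 0.12, and Msmo1 and Sc5d, both sterol oxidases, 0.11 each. Ebp, the sterol isomerase, measured 0.868 and 0.869 in low-MYC and 1.91 and 2.06 in high-MYC cells, 2.28-fold higher per cell. Rescaled, it was 1.43 and 1.40 against 1.42 and 1.44, so that the groups overlapped, with a relative value of 0.01 (SE 0.0290). None of these 5 passed at 0.05 on that scale, where 7.84% of all tested genes were higher and 5.08% lower. The median of the 11 genes was 0.26, that of the 6 earlier genes 0.34, and that of all 17 sterol synthesis genes 0.29. With 2 libraries per group and genes that are not replicates of a condition, the difference between these medians has no test.

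Among the SREBP regulators, 0 of 4 were higher at 0.01 relative to the median gene, beside 1.76% of all tested genes, and 4 of 4 rose per cell, beside 97.1%. Insig1, itself a target of SREBPs, had the largest relative value, 0.32 (SE 0.0304, adjusted p = 0.0124, limma with Benjamini-Hochberg adjustment), from 2.95 and 3.12 in low-MYC to 8.35 and 8.90 in high-MYC cells. Srebf2 was measured at 0.706 and 0.701 in low-MYC and 1.85 and 1.86 in high-MYC libraries, and Srebf1 at 1.17 and 1.12 against 2.86 and 2.69. Their relative values were 0.20 for Srebf2 and 0.10 for Srebf1, whose rescaled groups overlapped, and Scap stood at 0.16. Srebf1 and Srebf2 RNA gives no measure of the cleaved, active proteins.

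In fatty acid synthesis, Scd2 rose on both scales. Scd2 (ENSMUSG00000025203.6, chr19:44293674-44306864, plus strand) and Scd1 encode stearoyl-CoA desaturases, which make monounsaturated fatty acids. Scd2 had the highest level per length of all 29 genes in each library, at 9.25 and 9.21 in low-MYC and 29.8 and 30.5 in high-MYC cells. Rescaled, it was 15.3 and 14.9 against 22.1 and 21.4, a log2 fold change of 0.53 (SE 0.0339, adjusted p = 0.00643, limma with Benjamini-Hochberg adjustment). Scd1 measured 2.39 and 2.51 against 6.78 and 7.26, with a relative value of 0.33 (adjusted p = 0.0108, limma with Benjamini-Hochberg adjustment). Few exact 50-base stretches of the desaturases recur in other transcripts, 4.66% of those of Scd1 and 4.01% of those of Scd2. Similarity short of an exact match was not measured.

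Fasn and Acaca, the synthase and the carboxylase that build the fatty acid chain, had smaller relative values than the desaturases. Ranked by relative fold change among all tested genes, they stood at percentiles 87.66 and 78.24. Fasn was next in level to Scd2, at 8.00 and 8.17 in low-MYC and 21.1 and 20.4 in high-MYC cells, with a relative value of 0.18 (SE 0.0549). Acaca was far lower, at 0.135 and 0.144 against 0.337 and 0.364, with a relative value of 0.10 (SE 0.0379). Its level is uncertain, because 52.56% of its 50-base stretches recur in other transcripts, mainly Gm5182, listed at 0.268 and 0.262 against 0.713 and 0.730. Neither gene passed at 0.05 on the relative scale, where 7.84% of all tested genes were higher and 5.08% lower. The median of the 4 genes was 0.26, close to that of sterol synthesis.

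Lipid export and uptake genes had the lowest summed level of the 4 classes, 0.571 and 0.610 in low-MYC and 4.23 and 4.27 in high-MYC libraries, and held the largest change. Apoe (ENSMUSG00000002985.16, chr7:19696109-19699188, minus strand), the apolipoprotein that accepts exported cholesterol and is made by macrophages among other cells, was 0.233 and 0.237 in low-MYC and 3.31 and 3.29 in high-MYC libraries, 14.1-fold higher per cell. Rescaled to the median gene it was 0.385 and 0.382 against 2.46 and 2.30, 6.21-fold higher, with a log2 fold change of 2.36 (SE 0.0427, adjusted p = 0.00164, limma with Benjamini-Hochberg adjustment). The study had listed Apoe among the most raised genes of these same samples, so its rise is not independent evidence.

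Macrophage markers moved with Apoe. All 30 genes of a macrophage list were higher in both high-MYC libraries than in both low-MYC libraries, and their summed FPK was 0.996 and 1.37 in low-MYC and 33.0 and 34.3 in high-MYC cells. Of the 30, 16 reached the mean of 0.1 needed for a test, most of them only through their high-MYC values. A call as higher was therefore largely fixed by that filter, and calls are not counted here. Lyz2, lysozyme, was the most abundant, at 0.0305 and 0.142 against 18.0 and 18.9, and the complement gene C1qc went from 0.00534 and 0.00535 to 1.24 and 1.21. In low-MYC cells 24 of the 30 were under 0.01, and none was at 0 in both libraries. Their part in the rise of Apoe was not tested. Of 10 adipocyte markers 4 were listed, with sums of 0.210 and 0.226 against 0.913 and 1.04; Fabp4, which macrophages also express, rose relative to the median gene by 1.01.

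The other export and uptake genes changed much less than Apoe. Abca1, the transporter that loads cholesterol onto apolipoproteins, had 0.0786 and 0.0945 in low-MYC and 0.277 and 0.321 in high-MYC libraries. It was 3.46-fold higher per cell, with a relative log2 fold change of 0.39 (SE 0.0669, adjusted p = 0.0413, limma with Benjamini-Hochberg adjustment). Both low-MYC values lay under the mean of 0.1 needed for a test. Abca1 reached that mean only through its high-MYC values, so its p-value is no support for a rise. Lpl, the lipase that releases fatty acids from lipoproteins, had 0.254 and 0.275 against 0.628 and 0.641 and a relative value of 0.07 (SE 0.0415). Macrophages express both genes, and whether such cells had a part in these values was not tested. The median of the 3 tested genes, 0.39, is the value of Abca1 alone and describes a spread from 0.07 to 2.36.

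Other genes listed with these pathways, not among the 29, had list medians nearer the median gene. Over all tested genes on the relative scale, 1.76% were higher and 0.531% lower at 0.01, and 7.84% and 5.08% at 0.05. Of 5 further genes listed with sterol synthesis, 0 passed at 0.01 in either direction on the relative scale and 1 was higher at 0.05. Their median was 0.06, but not all of them encode enzymes of the route to cholesterol. Acat2, the thiolase at the entry of the pathway, and Erg28 had the highest values, 0.30 and 0.10, and Ggps1, which diverts isoprenoids to protein prenylation, and Fdx1 the lowest, -0.17 and -0.04. Of 9 tested SREBP and LXR regulators, 0 passed at 0.01 and 2 were higher at 0.05, with a median of -0.04; Mbtps1, the protease that cleaves SREBPs first, and Mylip, an LXR-induced ubiquitin ligase, were highest at 0.21 and 0.20, and Insig2 and Nr1h2 lowest at -0.13 and -0.09.

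The wider lipid lists had a mixed picture. Of 15 tested genes of fatty acid and glycerolipid synthesis, 1 was higher at 0.01 and 4 at 0.05 on the relative scale. Beside them stand 1.76% and 7.84% of all tested genes. The median of this list was 0.13. The gene called was Acsl4, an acyl-CoA synthetase for arachidonic acid, at 0.40, followed by the citrate carrier Slc25a1 at 0.29, and the lowest were Gpam, -0.08, and Me1, -0.04. Of 20 tested genes of export, uptake and storage, 0 passed at 0.01, beside 1.76% higher and 0.531% lower of all tested genes. At 0.05, 3 were higher and 4 lower, beside 7.84% and 5.08%, with a median of 0.03. Pltp, a phospholipid transfer protein, and Abca7 were highest at 0.42 and 0.32. Soat1, which esterifies cholesterol for storage, and Vldlr, a lipoprotein receptor, were lowest at -0.35 and -0.25, although per cell both rose, with Soat1 going from 2.38 and 2.51 to 4.14 and 4.50.

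**Figure D3:**
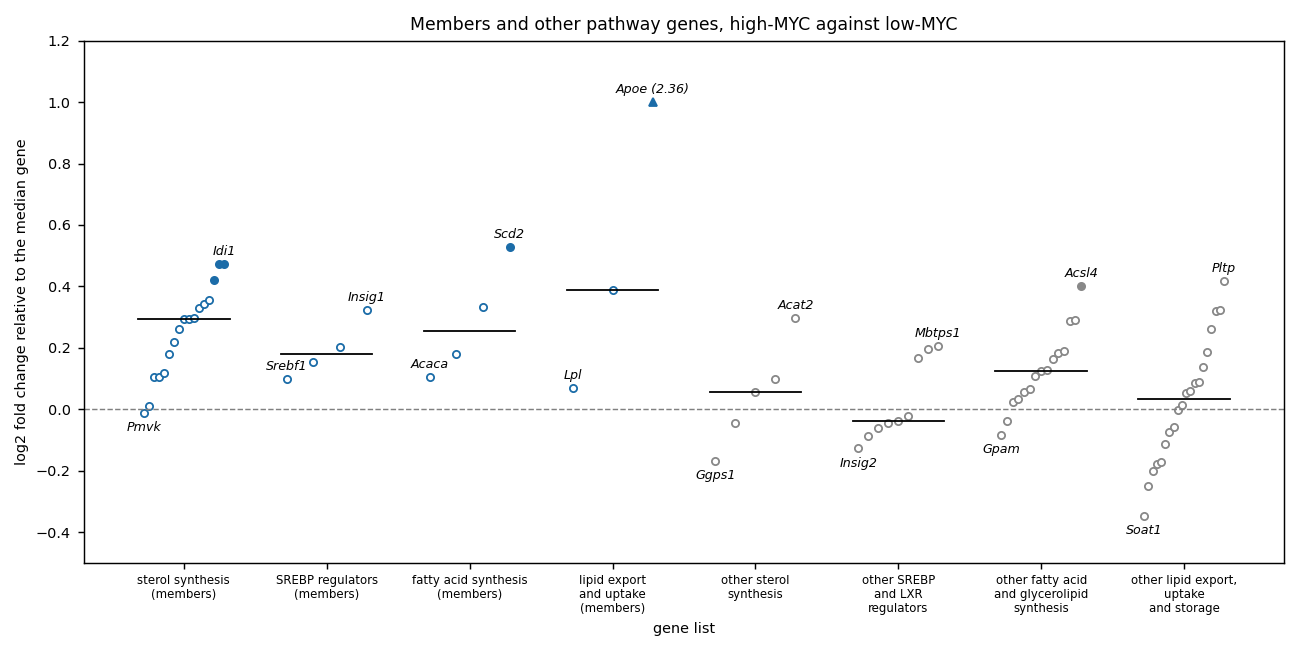
Log2 fold change relative to the median gene for the 4 classes of the 29 genes (blue) and 4 further pathway lists (grey), 1 point per tested gene, with black lines at list medians and filled points at an adjusted p under 0.01; the triangle marks Apoe, drawn at 1.0 for a value of 2.36. The blue medians lie between 0.18 and 0.39 and the grey medians between -0.04 and 0.13.

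The chromatin files could be set beside the genes only as a description. The TACh-seq table lists 4881417 reads with no column for their library, so wild-type and KOKD MEFs cannot be compared in it. The labels of all 4 TACh-seq samples point to this table, while its name resembles that of a single wild-type sample, and which libraries its reads come from is not known. Within 500 bases of the annotated start, 24 of the 28 tested lipid genes had a listed read, 85.71%, against 84.3% of 10213 tested protein-coding genes. The median number of reads was 176.5 for the lipid genes and 106 for the tested genes. Hmgcs1 had 396 reads, Fasn 375, Srebf2 316 and Mvd 314. By contrast 0 reads were listed at Abca1, Abcg1, Apoe and Lpl, the 4 export and uptake genes, also when every annotated start of these genes was searched, whereas 89.0% of tested genes had a read at one of their starts. Pmvk had 0 at the start used here and 90 at another annotated start. Reads of the listed table lie in limited regions, so 0 means only that no read was listed there.

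**Figure D4:**
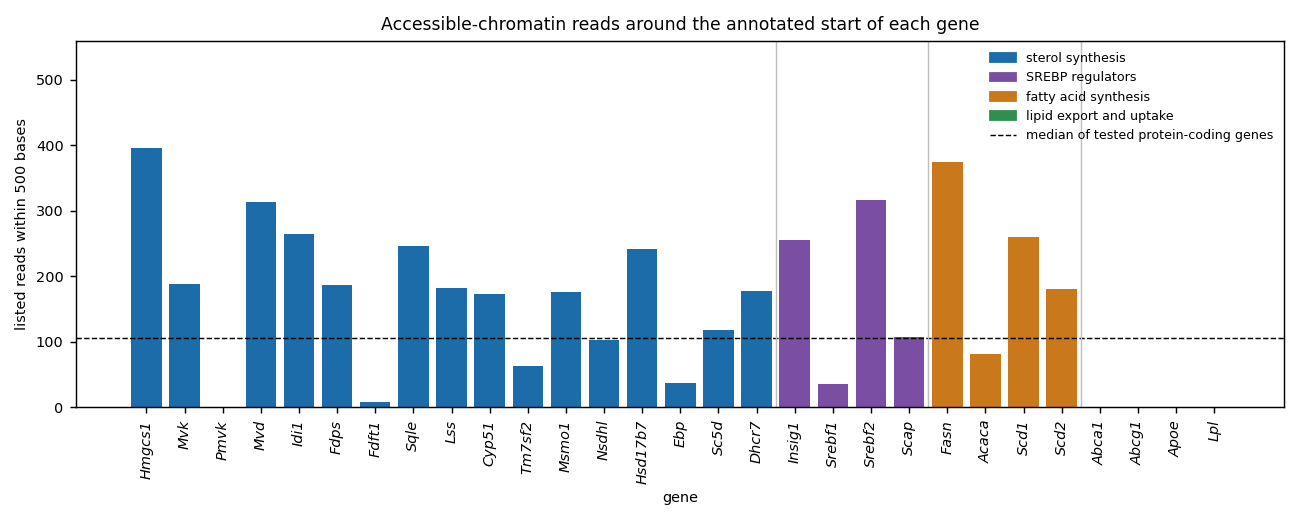
Number of listed TACh-seq reads within 500 bases of the annotated start of each of the 29 genes, as bars coloured by class, with the median of tested protein-coding genes as a dashed line at 106. Hmgcs1 is highest with 396 reads, and the 4 export and uptake genes have 0.

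The FUBP1 ChIP-seq list holds 166 peaks, all on chromosome 15, where Sqle and Srebf2 are the only genes of the 29. Neither gene held a peak, and none lay within 5000 bases. The nearest was 862877 bases from Sqle and 505981 bases from Srebf2. Of 406 tested protein-coding genes on this chromosome, 55 (13.5%) held a peak, so a gene without a peak was the usual case there. The list gives positions only, from 1 sample, and says nothing of the other 27 genes. The study reported many more peaks than this list holds, and some cross-reaction of the ChIP antibody with FUBP2.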

How the data were processed

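The main measurement was RNA-seq of 2 technical replicates each of low- and high-MYC MEFs. Low-quality 3′ ends were removed by the authors, who used TopHat with the mm10 transcriptome and the Partek E/M algorithm for quantification, and scaled each transcript's reads to its length and to the geometric mean of 10 ERCC transcripts; the deposited signal values are this normalized FPK. Tool versions are not given in the sources used here, read depth is unknown, and reads shared by similar genes were split by the quantification. All per-sample columns were assigned.

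From these, log2(FPK + 0.1) was compared with limma 3.58.1 (R 4.3.3; lmFit, then eBayes using a trend) over 11870 genes (minimum mean 0.1), with Benjamini-Hochberg adjustment over all of them, as deposited (per cell) and after rescaling each library to the same median (relative to the median gene). SDs are not printed where both replicate values are. All 29 genes are named, and from each further pathway list the 2 highest and 2 lowest by relative fold change, from marker lists the highest levels; C1qc was named after its values were seen. Some genes of the pathway lists are not reported here, and the lists were counted without them. Members and lists were chosen with earlier results of these data known. Shared stretches were sought among annotated transcripts (GENCODE).

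For TACh-seq and FUBP1 ChIP-seq, alignment to mm10 was done by the authors with Bowtie2 and peak calling with SICER. The deposited TACh-seq table gives read positions, lengths and a mapping score per read, and the peak list gives positions only; the design had assumed values per library. Promoters are from RefSeq (GRCm38.p6); motifs were counted in the full windows, and the sequences printed were cut before the first annotated start. Alternatives covered the pseudocount, minimum mean, scaling, limma trend, replicate block, thresholds, windows and each library left out. Python 3.11.15, pandas 2.3.3, numpy 2.4.6 and matplotlib 3.10.9 were used.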

Additional observations from a re-analysis of the deposited data

How the results depend on the processing

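On the per-cell scale, all 271 gene values recomputed kept their direction and their call. The count of lipid genes at least 2-fold higher was 25, and it was 12 with a pseudocount of 1. It was 1 with the libraries set to the same median, where 5 were higher at any fold change in place of 28. Over all 11870 tested genes, the 2-fold counts were 6540, 1448 and 68 in the same order. With the same median, 209 of them were higher at any fold change. Under the other alternatives the counts of lipid genes were 19 to 29. Relative to the median gene, 284 of 327 gene values kept both, 30 lost the call, 8 gained it and 5 reversed. The count of 5 higher genes was 1 without a filter on low values, 11 with a mean of at least 1 and 13 at an adjusted p under 0.05. Over all tested genes the count was 209 of 11870 in the main fit and 64 of 19769 without a filter. It was 318 of 5608 with a mean of at least 1 and 931 of 11870 at an adjusted p under 0.05. Rescaling to the same total also gave 5, of which 3 were shared (Apoe, Fdft1 and Scd2), beside 210 of all 11870 tested genes. The same upper quartile gave the same 5, beside 262 of 11870. With a replicate block the count was 0, as it was over all 11870 tested genes, and the per-cell counts of 28 and 25 did not move. The replicates share only a number, with a correlation of their deviations of 0.081 across 11870 genes. Without each library in turn, 1 group held a single library, so no count of calls is given. The relative log2 fold change was then 0.45 to 0.51 for Hmgcs1 and 0.44 to 0.52 for Idi1. Reversed values were those of Pmvk, 0.10 without low-MYC replicate 1 and 0.12 without high-MYC replicate 2, within a range of -0.15 to 0.12 without each library, and of Ebp, -0.0196 without a filter, -0.00055 with a mean of at least 1 and -0.00079 with the same upper quartile. Per-cell medians with pseudocounts of 0.01 and 1 were 1.48 and 0.85 in sterol synthesis, 1.36 and 0.78 in regulators and 1.68 and 0.37 in export and uptake, and 1.24 with a pseudocount of 1 in fatty acid synthesis. The per-cell median of export and uptake was 1.02 to 1.18 without each library. Relative medians in sterol synthesis were 0.31 and 0.12 with these pseudocounts, 0.26 without a filter and 0.25 to 0.32 without each library; in export and uptake 0.58, 0.091, 0.21 and 0.33 to 0.48; and in regulators 0.10 with a pseudocount of 1. The causes were not tested, apart from the fewer samples or different genes tested in some of them. The depth of the libraries is unknown, and 2 technical replicates per group limit what the p-values cover.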
